A study of Homo sapiens with 12 samples.

Results

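The genes described here encode 3 receptors of the ERBB family (EGFR, ERBB2 and ERBB3), the receptor tyrosine kinase MET, 4 ligands of EGFR (AREG, EREG, TGFA and HBEGF) and ERRFI1, a feedback inhibitor of EGFR. They were chosen by name, as the 9 rows of the expression table that carry these symbols, out of 59172 features of which 18062 were tested. All 9 passed the filter on low values, with at least 174 reads in every library (HBEGF) and up to 12854 (ERRFI1). RNA was sequenced from HCT-116, an established human colorectal carcinoma line, in 4 groups of 3 libraries. Wild-type cells were left untreated, received CPT-11 (irinotecan, a topoisomerase I inhibitor) for 24 h, or were pretreated with lovastatin (an inhibitor of HMG-CoA reductase) for 4 h and then received CPT-11 for 24 h. In the remaining group SHP2 was silenced with a short hairpin RNA and the cells received CPT-11 for 24 h. Hence 3 of the 4 groups share CPT-11. Cells given lovastatin alone, silenced cells without CPT-11 and cells with a control hairpin are not analysed here, so silencing cannot be told apart from the presence of a hairpin, and the labels do not say whether the silenced cells are 1 clone. Whether replicate libraries represent independent cultures is not stated, and p-values therefore measure only the spread between libraries, which may be technical.

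ERBB receptors sit in the plasma membrane and are activated when a ligand brings receptors together in pairs. EGFR binds amphiregulin (AREG), epiregulin (EREG), TGF-alpha (TGFA) and HB-EGF (HBEGF), which are made as membrane-bound precursors and released by ADAM proteases. ERBB2 has no known ligand of its own, ERBB3 has little kinase activity and signals as a partner, and MET is the receptor of hepatocyte growth factor. Activated receptors recruit adaptors and the phosphatase SHP2, the product of PTPN11, which promotes signalling through RAS to ERK. ERK in turn induces transcription of feedback inhibitors, among them ERRFI1 (also called MIG6), which binds the EGFR kinase domain. In colon cancer AREG and EREG are known as ligands that tumour cells make themselves.

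The labels were checked first. PTPN11 measured 6.01, 6.54 and 7.15 FPKM (read counts scaled by gene length and sequencing depth) in the silenced libraries, and 43.2 to 55.4 FPKM in the other 9. The treatment label of the silenced samples also names lovastatin, whereas their titles do not, and the samples were grouped by title. HMGCS1, a sterol synthesis gene that cells raise when that synthesis is blocked, was at 24.9 to 25.8 FPKM in the silenced libraries, against 101 to 105 FPKM in the lovastatin libraries. CPT-11 replicate 3 stood apart from its group. Over the tested genes its log2 values correlated with those of CPT-11 replicates 1 and 2 at Pearson r of 0.9815 and 0.9771, and with the lovastatin libraries at 0.9917 to 0.9930. Relative to the mean of all libraries, its log2 values had a slope on gene GC content of 0.08 for each 10 percentage points. That slope was -0.16 and -0.18 in the other CPT-11 libraries, -0.15 to -0.01 in untreated, 0.01 to 0.08 in lovastatin and 0.10 to 0.14 in silenced libraries. The groups therefore differed in GC slope as well as in treatment, and several results are also given without CPT-11 replicate 3 or with a correction for GC content. The epithelial markers KRT8, KRT18, KRT19 and EPCAM were abundant (62.0 to 627 FPKM), whereas the differentiation markers CDX1, VIL1 and LGALS4 were at or near 0. The other epithelial markers of the list lay between: CDH1 at 6.53 to 14.0 FPKM, CDX2 at 3.03 to 5.88 and KRT20 at 0.52 to 1.63. CDH17 reached at most 0.28 FPKM and GPA33 0.17. Summed over 14 markers of fibroblasts, endothelium and blood, expression was 3.45 to 4.11 FPKM in untreated, 3.88 to 5.48 with CPT-11, 5.29 to 5.82 with lovastatin and CPT-11 and 5.90 to 6.63 in silenced libraries. Most of it was COL1A1 (3.15 to 5.89 FPKM), with COL1A2, DCN, LUM and CD3E at or near 0, and its part in the results was not tested. In bulk RNA fewer cells of a type and less RNA per cell cannot be told apart.

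In untreated cells the ligands AREG and EREG were among the most abundant transcripts of the cell. AREG averaged 163 ± 1.2 FPKM and EREG 131 ± 7.4 FPKM (mean ± SD, n = 3), above 99.1% and 98.8% of tested genes. ERRFI1 was higher still, at 191 ± 5.8 FPKM. MET followed at 69.8 ± 6.2 FPKM, EGFR at 17.2 ± 0.97 FPKM and TGFA at 13.8 ± 0.67 FPKM. The level of ERBB2 was 9.71 ± 0.87 FPKM. ERBB3 and HBEGF came last, at 4.61 ± 0.40 and 3.99 ± 0.31 FPKM, near the middle of tested genes. FPKM is per gene length, taken here as the length of all annotated exons of a gene together. Transcripts can be shorter than that, so the order of levels between genes is approximate. Neighbours in this order did not overlap between libraries except ERBB3 with HBEGF, whose lowest and highest libraries (4.15 to 4.86 and 3.64 to 4.18 FPKM) did. The other receptor and ligands of the family were scarce: group means were 0.024 to 0.048 FPKM for ERBB4, 0.057 to 0.30 for EPGN, 0.18 to 0.36 for EGF and 1.96 to 2.70 for BTC. HGF, the ligand of MET, had at most 3 reads in any library. With CPT-11 the order changed: AREG (219 ± 14 FPKM) stood above ERRFI1 (150.3 ± 10), TGFA (23.4 ± 0.15) above EGFR (14.1 ± 1.0), and HBEGF (8.56 ± 0.43) overlapped ERBB2 (8.39 ± 1.1).

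**Figure D1:**
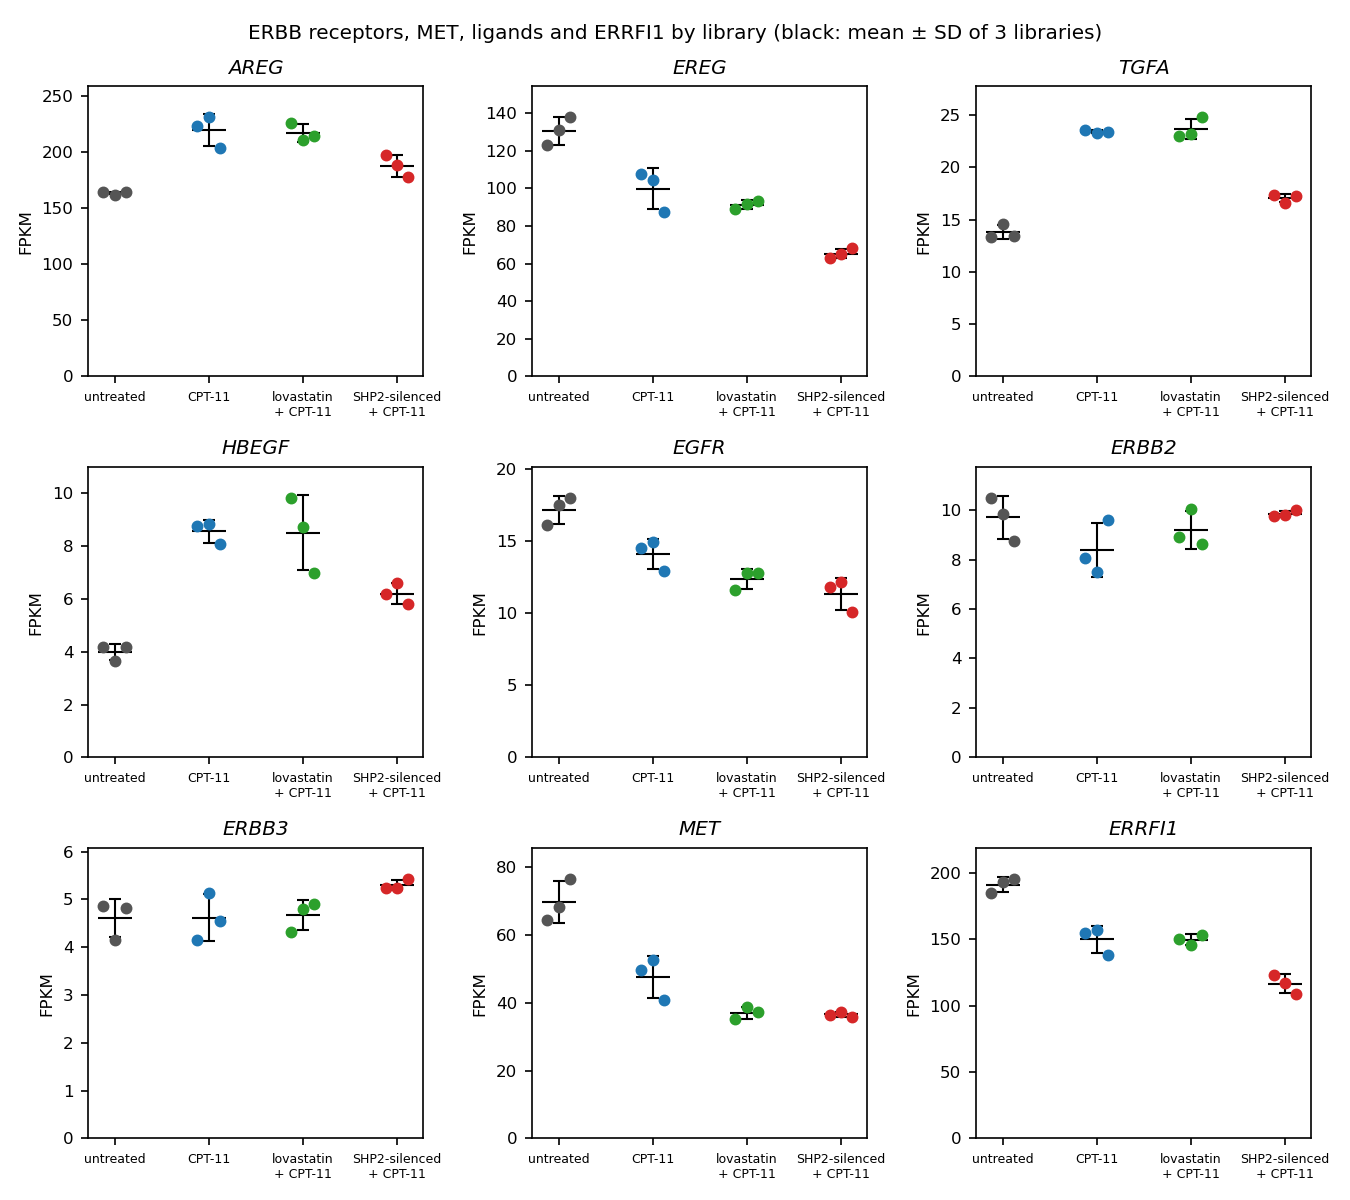
Expression of the 9 genes in FPKM in every library (points, 3 per group) with the mean and SD of each group (black). AREG, TGFA and HBEGF are lowest in untreated cells, EREG, EGFR, MET and ERRFI1 are highest there, ERBB2 overlaps between untreated cells and the other groups, and for ERBB3 the silenced libraries (5.23 to 5.43 FPKM) lie just above the rest.

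EREG and AREG are neighbours on chromosome 4 (GRCh38 74365143 to 74388751 and 74445134 to 74455009, both on the plus strand), 56382 bases apart, with 1 listed gene between them, the antisense RNA AC021180.1, which had at most 2 reads. The bases before the start sites of the ligand genes are shown because these neighbours moved in opposite directions with CPT-11, while AREG moved with TGFA and HBEGF, which lie on chromosomes 2 and 5. The sequences run from 250 bases before the RefSeq start site up to it on GRCh38.p14, 5′ to 3′ on the gene's strand, and capitals mark matches to the motifs described after them.
AREG, chr4:74444886-74445135, plus strand: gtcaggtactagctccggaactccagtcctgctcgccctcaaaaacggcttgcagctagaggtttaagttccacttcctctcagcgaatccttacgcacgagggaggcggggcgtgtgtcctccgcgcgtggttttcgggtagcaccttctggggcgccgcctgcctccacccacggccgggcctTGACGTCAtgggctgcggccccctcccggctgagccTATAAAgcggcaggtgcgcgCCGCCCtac
EREG, chr4:74364895-74365144, plus strand: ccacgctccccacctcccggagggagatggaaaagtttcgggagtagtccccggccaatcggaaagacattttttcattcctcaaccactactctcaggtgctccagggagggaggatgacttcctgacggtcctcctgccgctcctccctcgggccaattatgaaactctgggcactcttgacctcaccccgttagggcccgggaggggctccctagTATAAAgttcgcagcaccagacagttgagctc
TGFA, chr2:70553827-70554076, minus strand: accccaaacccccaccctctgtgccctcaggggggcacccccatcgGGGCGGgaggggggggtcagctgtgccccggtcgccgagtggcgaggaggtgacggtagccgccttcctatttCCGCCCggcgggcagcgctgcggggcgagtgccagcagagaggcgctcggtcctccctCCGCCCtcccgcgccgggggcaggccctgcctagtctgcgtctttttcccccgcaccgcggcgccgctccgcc
HBEGF, chr5:140346604-140346853, minus strand: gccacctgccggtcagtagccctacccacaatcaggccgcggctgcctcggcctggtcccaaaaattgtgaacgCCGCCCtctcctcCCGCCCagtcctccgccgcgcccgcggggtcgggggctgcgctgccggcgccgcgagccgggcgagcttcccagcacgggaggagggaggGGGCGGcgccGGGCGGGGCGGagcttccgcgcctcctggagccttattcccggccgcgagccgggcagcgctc

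Motifs were searched on both strands in a window of 300 bases, which adds 50 bases after the start: the AP-1 site TGACTCA (or TGAGTCA), the cAMP response element TGACGTCA, the GC box GGGCGG and the TATA box TATAAA. Positions count back from the start site. AREG held a cAMP response element at -65, a motif present in 1.85% of the 35116 promoters of the table, a TATA box at -29 and a GC box at -9. EREG held a TATA box at -32 and none of the other motifs. RefSeq lists a further TGFA promoter, from another start nearby, which held none of the motifs and was 63.0% GC, and the one with matches is shown. That TGFA window held GC boxes at -204, -131, -73 and, beyond the printed bases, 45 after the start, and HBEGF at -176, -163, -73, -63 and -58, the last pair overlapping by a base, and neither held a TATA box. A GC box was present in 44.95% of all promoters, a TATA box in 11.53% and an AP-1 site in 4.95%. The 300-base windows shown for TGFA and HBEGF were 75.3% and 75.0% GC, that of AREG 66.3% and that of EREG 57.7%, against a median of 58.7% over all promoters. GC boxes were not particular to ligands that rose with CPT-11. Of the genes that fell, ERRFI1 (74.7% GC) held a GC box at -70, and MET (69.3% GC) at -160, -95 and 13 after the start. The EGFR promoter of 75.3% GC held GC boxes at -204, -36 and 44 after the start. That of 42.0% GC held AP-1 sites and TATA boxes but no GC box. These matches describe letters only and show no binding.

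CPT-11-treated cells were compared with untreated cells, and here the ligands split. The GC slopes of these groups also differ, and their part cannot be told apart from that of the drug. AREG, TGFA and HBEGF rose, whereas EREG, EGFR, MET and ERRFI1 fell. With the test used throughout (limma on log2(FPKM + 1), Benjamini-Hochberg adjusted over all tested genes), 3 of the 9 genes were higher and 4 lower, where 8.85% of all tested genes were higher and 7.70% lower. Rescaled to equal totals of reads, 1909 genes were higher and 1003 lower over the whole table, instead of 1598 and 1391. The median difference of the 9 genes was -0.19, against -0.01 over all genes.

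HBEGF rose 2.14-fold, from 4.17, 3.64 and 4.18 FPKM in untreated libraries to 8.75, 8.86 and 8.07 FPKM with CPT-11. TGFA rose 1.70-fold, from 13.4, 14.6 and 13.5 FPKM to 23.6, 23.3 and 23.4 FPKM. AREG rose 1.34-fold, from 164, 162 and 164 FPKM to 223, 231 and 203 FPKM. In each of these ligands every CPT-11 library lay above every untreated library. With 3 libraries against 3, the smallest two-sided exact permutation p for such a separation is 0.1. The share of all tested genes whose groups did not overlap is not given here, so separation is only described, here and below. The log2 differences (± standard error) were 0.94 ± 0.10 for HBEGF (adjusted p = 0.00013), 0.72 ± 0.05 for TGFA (adjusted p = 4.4e-06) and 0.42 ± 0.06 for AREG (adjusted p = 0.00092). Throughout, ± after a log2 difference is its standard error from the limma fit, and ± after a level in FPKM is the SD between libraries. HBEGF (ENSG00000113070, minus strand of chromosome 5, 140332843 to 140346631) had the fewest reads of the 9 genes, 174 to 484 per library.

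EREG went the other way: it measured 123, 131 and 138 FPKM in untreated libraries and 107, 105 and 87.3 FPKM with CPT-11, with replicate 3 the lowest and no overlap between the groups. The difference was -0.39 ± 0.08 (adjusted p = 0.0054). It did not pass in a fit of only the groups compared (adjusted p = 0.063), and without CPT-11 replicate 3 it was -0.30 (adjusted p = 0.0030).

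Among the receptors MET (ENSG00000105976, chromosome 7, 116672390 to 116798386) changed the most. EGFR (ENSG00000146648) lies on the same chromosome at 55019021 to 55211628. MET measured 64.5, 68.3 and 76.6 FPKM in untreated libraries and 49.7, 52.7 and 40.7 FPKM with CPT-11, which did not overlap (difference -0.54 ± 0.09, adjusted p = 0.0020). EGFR measured 16.1, 17.5 and 18.0 FPKM before and 14.5, 14.9 and 13.0 FPKM after CPT-11 (difference -0.27 ± 0.08, adjusted p = 0.042). The groups did not overlap, but the call was close to the threshold and was lost without untreated replicate 2 or 3 or CPT-11 replicate 1 or 3 (adjusted p = 0.073 to 0.13), and with rescaling to equal totals (adjusted p = 0.098). ERBB2 (difference -0.19, 95% interval -0.39 to 0.01, adjusted p = 0.18) and ERBB3 (0.00, -0.18 to 0.18, adjusted p = 1.00) did not pass. ERBB2 passed without CPT-11 replicate 3, at -0.28 (adjusted p = 0.025). ERRFI1 (ENSG00000116285, chromosome 1, 8004404 to 8026308) fell from 185, 194 and 196 FPKM to 155, 157 and 138 FPKM (difference -0.35 ± 0.06, adjusted p = 0.0038), again with no overlap.

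**Figure D2:**
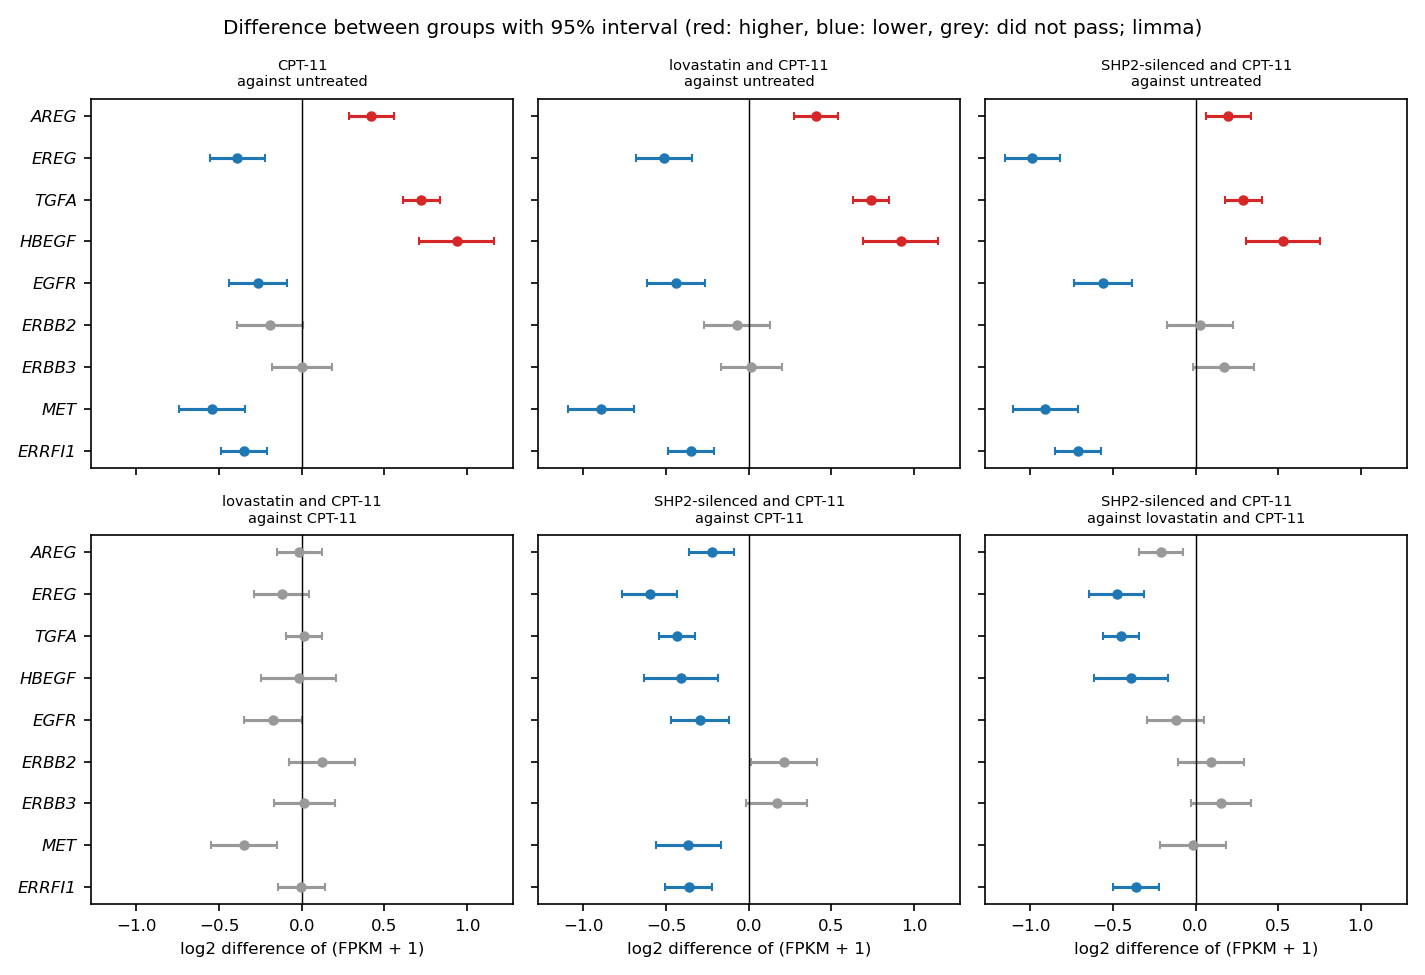
Difference of log2(FPKM + 1) between groups with its 95% interval for the 9 genes in the 6 comparisons, coloured where the adjusted p passed 0.05. In the upper row, against untreated cells, AREG, TGFA and HBEGF lie to the right and EREG, EGFR, MET and ERRFI1 to the left in all 3 panels; in the lower row no interval of lovastatin and CPT-11 against CPT-11 is coloured.

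Lovastatin before CPT-11 was compared with CPT-11 alone, groups whose GC slopes also differ. None of the 9 genes passed: 0 were higher and 0 lower, where 0.393% of tested genes were higher and 0.0720% lower. With limma 1 of them had an unadjusted p under 0.05, and with voom on the recovered reads 0 passed. The median difference was -0.01, against 0.00 over all genes. The gene nearest to the threshold was MET, at 35.2, 38.7 and 37.3 FPKM with lovastatin and CPT-11 against 49.7, 52.7 and 40.7 FPKM with CPT-11 alone. The groups did not overlap, with CPT-11 replicate 3 closest to the lovastatin libraries, and the difference was -0.35 ± 0.09 (adjusted p = 0.14). AREG, TGFA, HBEGF and ERRFI1 differed by at most 0.02 on the log2 scale, with 95% intervals that reached 0.24 at the widest (HBEGF, -0.24 to 0.21). The intervals for EREG (-0.29 to 0.05), EGFR (-0.35 to 0.00), ERBB2 (-0.08 to 0.32) and ERBB3 (-0.17 to 0.20) do not exclude moderate changes.

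The result against CPT-11 alone depended on 1 library. Without CPT-11 replicate 3, MET (-0.46, adjusted p = 0.00155), EREG (-0.21, adjusted p = 0.0145) and EGFR (-0.23, adjusted p = 0.047) were lower with lovastatin, and 3 of the 9 genes passed. That fit called 5455 of the 18062 tested genes, 2871 higher and 2584 lower, against 84 with all libraries. The gain in calls thus ran over the whole table and was not particular to these genes. With log2 values corrected for GC content and gene length, a setting chosen after seeing the data, MET alone passed (-0.25, adjusted p = 0.047) and the difference of EREG was -0.0029 (adjusted p = 0.97). With that correction 154 genes were higher and 172 lower over the whole table. EREG has the lowest GC content of the 9 genes (38.1% of its exons), followed by AREG (41.9%) and MET (43.9%), and ERBB2 the highest (59.5%).

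Against untreated cells, lovastatin and CPT-11 together moved the same 7 genes as CPT-11 alone did, in the same directions. Both comparisons use the untreated libraries. Here 3 of the 9 genes were higher and 4 lower, where 14.7% of tested genes were higher and 14.3% lower (3245 higher and 1950 lower with rescaling to equal totals, instead of 2654 and 2580). HBEGF rose by 0.92 ± 0.10, TGFA by 0.74 ± 0.05 and AREG by 0.41 ± 0.06, while MET fell by 0.89 ± 0.09, EREG by 0.51 ± 0.08, EGFR by 0.44 ± 0.08 and ERRFI1 by 0.35 ± 0.06 (adjusted p = 2.5e-06 to 0.0022). ERBB2 (-0.07, adjusted p = 0.60) and ERBB3 (0.02, adjusted p = 0.90) did not pass. With the GC correction 8 of the 9 genes passed, 3 higher and 5 lower (2898 and 3319 over all tested genes). ERBB2 or ERBB3 was thus among the lower genes in that setting.

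SHP2-silenced cells under CPT-11 were compared with CPT-11 alone. This contrast holds the silencing together with the hairpin and the GC slopes of the groups, which cannot be told apart. All 4 ligands, EGFR, MET and ERRFI1 were lower in silenced cells. The CPT-11 libraries are the same ones that were set against untreated cells. Of the 9 genes 0 were higher and 7 lower, where 10% of tested genes were higher and 12% lower (2363 higher and 1637 lower with rescaling to equal totals, instead of 1807 and 2167). The median difference of the 9 genes was -0.36, against 0.00 over all genes.

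EREG fell the most, from 107, 105 and 87.3 FPKM with CPT-11 alone to 62.9, 65.1 and 68.1 FPKM in silenced cells. The groups did not overlap and the difference was -0.60 ± 0.08 (adjusted p = 0.00098). After correction for GC content and length it was -0.37 (adjusted p = 4.8e-05), a value smaller by more than 1.5 times. TGFA fell from 23.6, 23.3 and 23.4 FPKM to 17.3, 16.6 and 17.3 FPKM (difference -0.43 ± 0.05, adjusted p = 0.00048). HBEGF fell from 8.75, 8.86 and 8.07 FPKM to 6.19, 6.60 and 5.82 FPKM (difference -0.41 ± 0.10, adjusted p = 0.021). For TGFA and HBEGF, and also for AREG, the silenced libraries lay between the untreated and the CPT-11 libraries, with no overlap with either. AREG showed the smallest difference of the ligands, from 223, 231 and 203 FPKM to 197, 188 and 177 FPKM (difference -0.22 ± 0.06, adjusted p = 0.029), and did not pass after the GC correction (-0.12, adjusted p = 0.12) or with rescaling to equal totals (-0.18, adjusted p = 0.054).

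MET measured 36.5, 37.4 and 35.9 FPKM in silenced cells, below the lowest CPT-11 library at 40.7 FPKM (difference -0.37 ± 0.09, adjusted p = 0.020), and its difference was -0.21 after the GC correction (adjusted p = 0.029). EGFR measured 11.8, 12.2 and 10.1 FPKM, below all CPT-11 libraries (13.0 to 14.9 FPKM, difference -0.29 ± 0.08, adjusted p = 0.027). ERRFI1 fell to 124, 117 and 109 FPKM from 155, 157 and 138 FPKM (difference -0.36 ± 0.06, adjusted p = 0.0057). ERBB2 measured 9.78, 9.80 and 10.002 FPKM in silenced cells against 8.07, 7.50 and 9.61 FPKM, which did not overlap but did not pass (difference 0.22, 95% interval 0.02 to 0.42, adjusted p = 0.10). ERBB3 measured 5.25, 5.23 and 5.43 FPKM against 4.16, 5.14 and 4.56 FPKM, again without overlap, and did not pass either (0.17, -0.01 to 0.35, adjusted p = 0.16). Part of the ERBB2 exons lie opposite MIEN1 and PGAP3 (571 and 194 shared bases), and without knowledge of the strand setting reads there cannot be assigned.

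How many genes passed in this comparison depended on single libraries. EREG, TGFA and ERRFI1 passed whichever library was left out, and these 3 were all that passed without CPT-11 replicate 1, CPT-11 replicate 2, silenced replicate 1 or silenced replicate 3. Without silenced replicate 2, 5 passed. Without CPT-11 replicate 3 the 7 lower genes passed and ERBB2 was higher (0.31, adjusted p = 0.0096). Over all tested genes 3897 were then higher and 3952 lower. In a fit of the 2 groups alone EREG (adjusted p = 0.028) and TGFA (adjusted p = 0.020) passed.

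**Figure D3:**
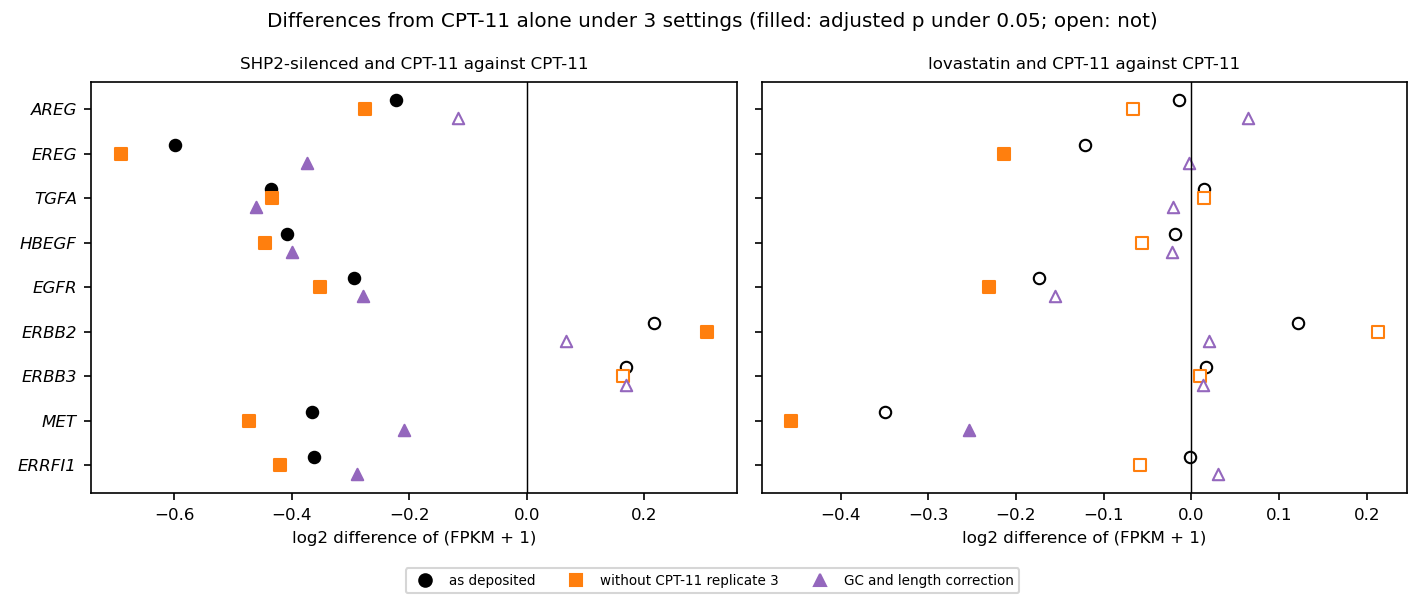
Differences of log2(FPKM + 1) from CPT-11 alone for the 9 genes in SHP2-silenced cells (left) and lovastatin-pretreated cells (right), with all libraries as deposited, without CPT-11 replicate 3, and after correction for GC content and length; filled symbols passed an adjusted p of 0.05. EREG lies between -0.37 and -0.69 in the left panel under the 3 settings, and between -0.21 and -0.0029 in the right panel.

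The comparison of silenced cells with lovastatin-pretreated cells does not use the CPT-11 libraries, and so is free of CPT-11 replicate 3 in its means. EREG, TGFA, HBEGF and ERRFI1 were lower in silenced cells. Of the 9 genes 0 were higher and 4 lower, where 2.58% of tested genes were higher and 4.26% lower (633 higher and 675 lower with rescaling to equal totals, instead of 466 and 769). With that rescaling 3 of the 9 genes were lower and 0 higher. With no filter the counts were the same, where 271 genes were higher and 555 lower over the whole table. EREG measured 89.0, 91.6 and 93.5 FPKM with lovastatin, above every silenced library (difference -0.48 ± 0.08, adjusted p = 0.0035). TGFA, at 23.0, 23.2 and 24.8 FPKM with lovastatin, differed by -0.45 ± 0.05 (adjusted p = 0.00033). ERRFI1, at 151, 145 and 154 FPKM with lovastatin, differed by -0.36 ± 0.06 (adjusted p = 0.0066). In these genes the silenced libraries were the lowest of the CPT-11-treated ones. HBEGF (9.82, 8.71 and 6.99 FPKM with lovastatin) differed by -0.39 ± 0.10 (adjusted p = 0.045), a call lost without lovastatin replicate 1 or 2 or any 1 of the silenced libraries (adjusted p = 0.0845 to 0.145). AREG (226, 210 and 214 FPKM with lovastatin) differed by -0.21 and did not pass (95% interval -0.35 to -0.07, adjusted p = 0.067), but passed after the GC correction (-0.18, adjusted p = 0.033). MET was nearly level between these groups (-0.02, -0.21 to 0.18, adjusted p = 0.94), and EGFR differed by -0.12 (-0.30 to 0.05, adjusted p = 0.43).

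Set against untreated cells, silenced cells under CPT-11 were lower in EREG, MET, ERRFI1 and EGFR and higher in HBEGF, TGFA and AREG. Here 3 of the 9 genes were higher and 4 lower, where 18.3% of tested genes were higher and 19.5% lower (4329 higher and 2571 lower with rescaling to equal totals, instead of 3308 and 3520). EREG was down 2.00-fold (difference -0.99 ± 0.08, adjusted p = 5.1e-06), MET 1.91-fold (-0.91 ± 0.09), ERRFI1 1.64-fold (-0.71 ± 0.06) and EGFR 1.52-fold (-0.56 ± 0.08). HBEGF was up by 0.53 ± 0.10, TGFA by 0.29 ± 0.05 and AREG by 0.20 ± 0.06 (adjusted p = 0.027), or 0.31 after the GC correction. The call of AREG was lost without any 1 of the untreated libraries or without silenced replicate 1 or 2, with adjusted p = 0.053 to 0.10. ERBB2 (0.02, adjusted p = 0.86) and ERBB3 (0.17, adjusted p = 0.13) did not pass, and ERBB3 passed with rescaling to equal totals (0.25, adjusted p = 0.036).

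The make-up of the ligand pool moved with these changes. Summed over 11 ERBB ligands, expression was 308 to 324 FPKM in untreated libraries, 326 to 373 FPKM with CPT-11, 338 to 352 FPKM after lovastatin and CPT-11, and 272 to 287 FPKM in silenced libraries. AREG made up 51.7% ± 1.4 of the sum in untreated cells (SD, n = 3), 61.6% ± 0.96 with CPT-11, 62.9% ± 1.1 after lovastatin and CPT-11, and 67.0% ± 1.8 in silenced cells. EREG made up 41.4% ± 1.3, 28.0% ± 1.2, 26.5% ± 1.1 and 23.4% ± 1.5 in the same order of groups. The ratio of AREG to EREG was 1.33, 1.23 and 1.19 in untreated, 2.07, 2.20 and 2.33 with CPT-11, 2.54, 2.29 and 2.29 after lovastatin pretreatment, and 3.13, 2.89 and 2.61 in silenced libraries. It was lowest in every untreated library and highest in every silenced one, and CPT-11 and lovastatin libraries overlapped. The ratio follows the calls given for each ligand and was not tested on its own. The GC slopes given for the groups also differ, and their part in the ratio was not tested.

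**Figure D4:**
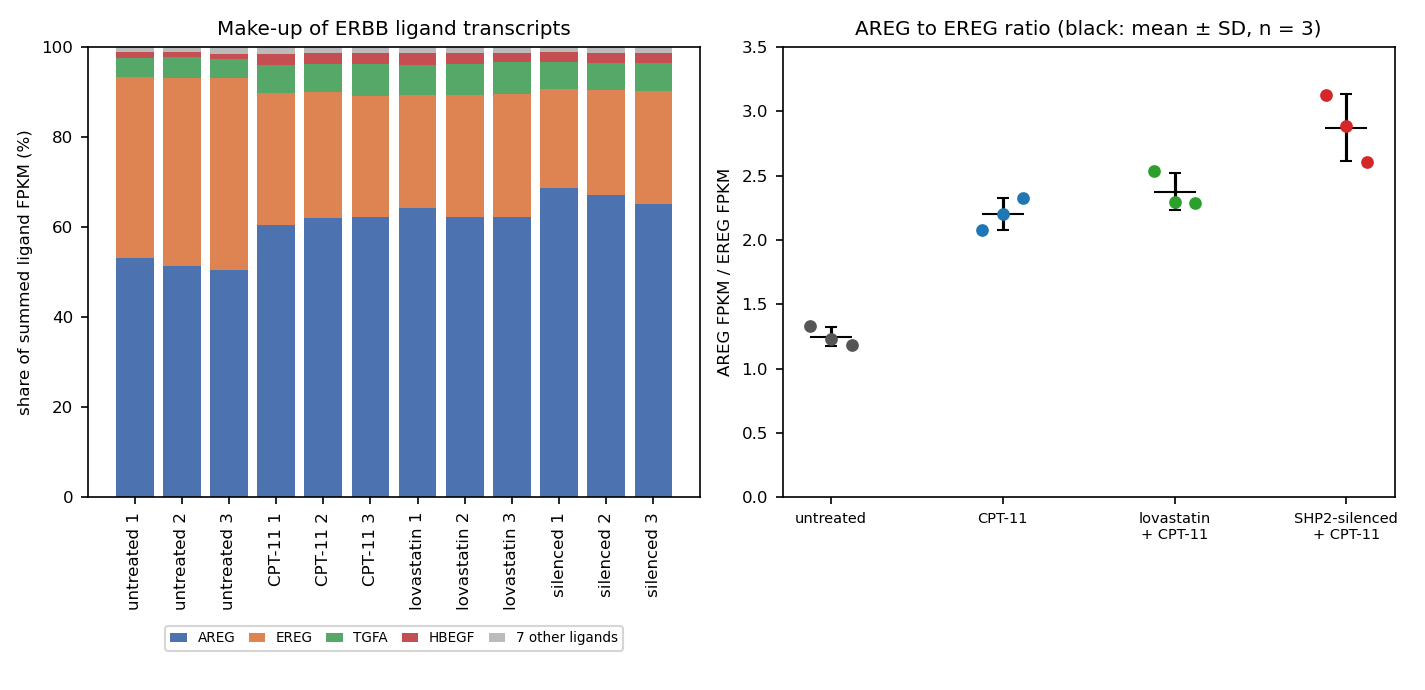
Left, share of each ligand in the summed FPKM of 11 ERBB ligands in every library. Right, ratio of AREG to EREG FPKM in every library (points) with the mean and SD of each group; the untreated libraries lie at 1.19 to 1.33 and the silenced libraries at 2.61 to 3.13.

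Of the 9 genes 7 fell into 2 patterns over the 12 libraries. EREG and ERRFI1 (Pearson r = 0.97), EGFR and MET (0.95), EGFR and ERRFI1 (0.92) and EGFR and EREG (0.91) varied together, and so did AREG and HBEGF (0.96), AREG and TGFA (0.94) and TGFA and HBEGF (0.91). AREG and EREG correlated at -0.30. ERBB2 and ERBB3 belonged to neither pattern: they correlated with each other at 0.17 and with the other 7 genes at -0.63 to -0.06. These correlations are descriptions: the libraries come in 4 groups and share depth and GC slope, so they mostly restate the group means. Among 2938 or 2939 other protein-coding genes whose group means ranged over at least 0.5 on the log2 scale, those most like EREG were SH3KBP1 (r = 0.99), CDC27 (0.99) and BZW1 (0.99), and those most like ERRFI1 were DPY19L1 (0.98), VSNL1 (0.98) and TIAM1 (0.98). MET was most like PRR11 (0.99), IGF2BP2 (0.99) and TCF12 (0.99), and EGFR most like SORL1 (0.99), FAT1 (0.98) and FRAS1 (0.97). Genes much like AREG were OPTN (0.97) and HERC5 (0.97), and genes much like TGFA were PMAIP1 (0.98) and TOB1 (0.98). HBEGF was most like S100A13 (0.98), PERP (0.97) and BCL10 (0.97).

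The rest of the pathway was followed in 9 lists of 122 genes, of which 115 were tested. In CPT-11 against untreated cells 13 of the 115 were higher and 11 lower, near the shares of 8.85% and 7.70% over all tested genes, with a median difference of -0.01. A fit of only these groups gave 5 higher and 4 lower (737 and 417 over all tested genes). The GC correction gave 19 and 25 (2183 and 2481 over all tested genes). Among the genes of ligand shedding, ADAM19 (-0.37 ± 0.07, adjusted p = 0.0039) and ADAM9 (-0.37, adjusted p = 0.020), both membrane proteases, fell, and RHBDF1, which supports the sheddase ADAM17, rose (0.39, adjusted p = 0.013); in all 2 of 9 rose and 2 fell. SHC1, an adaptor that links receptors to RAS, rose from 44.0 ± 5.2 to 67.1 ± 12 FPKM. Of the other receptor tyrosine kinases 5 of 23 rose, among them EPHB3 (0.96 ± 0.11, adjusted p = 0.00016) and EPHA2 (0.48 ± 0.08), both ephrin receptors, and 1 fell. Of 16 genes that ERK induces 0 rose and 4 fell (list median -0.10, against -0.01 over all genes), with the transcription factors EGR1 (-0.72 ± 0.13, adjusted p = 0.0040) and ETV1 (-0.44 ± 0.07) and the RAS pathway inhibitor SPRY4 (-0.34 ± 0.06) named. Of the RAS-ERK core 2 of 15 rose and 2 fell, of receptor degradation and inhibition 1 of 14 rose and 1 fell, and of the adaptors 1 of 15 rose and 1 fell. PLAU (urokinase) rose among 7 genes of MET and RON activation (0.64 ± 0.07), and PIK3CD among 10 of the PI3K-AKT core (0.23, adjusted p = 0.033). None of the 6 other family members passed with limma at an adjusted p of 0.05, at an unadjusted p under 0.05 or with voom (0 in each). Without CPT-11 replicate 3 the totals were 16 higher and 22 lower (2087 and 2333 over all tested genes).

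In silenced cells against CPT-11 alone 18 of the 115 pathway genes were higher and 30 lower, where 10% of all tested genes were higher and 12% lower. Their median difference was -0.03 (0.00 over all genes). The genes that ERK induces had 9 of 16 lower and 2 higher, with a list median of -0.27. DUSP6, a phosphatase that inactivates ERK, fell from 46.7 ± 5.7 to 21.2 ± 0.83 FPKM (-1.10 ± 0.08, adjusted p = 2.9e-05), ETV1 from 6.37 ± 0.42 to 3.21 ± 0.19 FPKM and PHLDA1 from 38.8 ± 0.82 to 27.4 ± 1.2 FPKM (-0.49, and -0.32 after the GC correction). DUSP5 (0.39) and SPRY1 (0.50) were the members that rose, named after their values were seen. The counts for this list were 9 lower and 3 higher without CPT-11 replicate 3, and 9 and 2 after the GC correction. Against lovastatin-pretreated cells 7 of the 16 were lower and 0 higher (list median -0.34), DUSP6 by -1.12 ± 0.08 (adjusted p = 1.2e-05).

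Among the genes of ligand shedding ADAM19 fell from 21.9 ± 0.79 to 8.19 ± 0.83 FPKM in silenced cells (-1.32 ± 0.07, adjusted p = 4.9e-06), and ADAM9 from 46.7 ± 6.3 to 27.9 ± 1.3 FPKM (-0.71 ± 0.09, adjusted p = 0.0011), while FRMD8 was higher (0.46 ± 0.12, adjusted p = 0.026, and 0.17 after the GC correction). In all 2 of these 9 rose and 2 fell. ADAM19 differed as much from lovastatin-pretreated cells (-1.32 ± 0.07, adjusted p = 1.3e-06). Of 14 genes that degrade or inhibit the receptors 7 fell and 1 rose (list median -0.22). CBL, the ubiquitin ligase of activated EGFR, fell from 12.6 ± 0.12 to 9.16 ± 0.41 FPKM, SH3KBP1, its endocytic adaptor, from 16.2 ± 1.6 to 10.4 ± 0.42 FPKM, and PTPRJ, a receptor phosphatase, from 5.16 ± 0.23 to 3.79 ± 0.21 FPKM. After the GC correction 5 of the 14 were lower and 0 higher.

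Of the RAS-ERK core 4 of 15 fell and 0 rose, with NRAS at 30.3 ± 4.6 and 19.1 ± 1.7 FPKM (-0.64 ± 0.10, adjusted p = 0.0033) and RPS6KA3, an ERK-activated kinase, at 8.82 ± 1.2 and 5.37 ± 0.21 FPKM (-0.62, and -0.40 after the GC correction). Of the adaptors 4 of 15 fell, PTPN11 itself included, and 2 rose, GRB7 (0.48 ± 0.09, and 0.26 after the GC correction) and IRS1 (0.41 ± 0.07). Of the genes of MET and RON activation 3 of 7 rose, among them ST14, the protease matriptase (25.5 ± 5.1 to 45.3 ± 1.5 FPKM), and its inhibitor SPINT2 (34.8 ± 7.1 to 49.9 ± 1.3 FPKM), and PLAU fell. Of the PI3K-AKT core 2 of 10 rose and 2 fell. Of the other receptor tyrosine kinases 6 of 23 rose, among them IGF1R (0.31 ± 0.06) and EPHA1 (0.42 ± 0.09, and 0.28 after the GC correction), and MERTK fell (-0.38 ± 0.08). Of marker genes, EPCAM and CDH1 rose among 8 tested of epithelium, and COL1A1 and PDGFRB, which is also in the kinase list, among 3 tested of other cell types. None of the 6 other family members passed with limma, where 2 had an unadjusted p under 0.05 and voom called 1.

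The totals of this comparison moved with single libraries, with scaling and with the fit. With only the groups compared, 1 pathway gene was higher and 14 lower (183 and 268 over all tested genes). With no filter the pathway counts were 10 and 21 (643 and 1107 over all genes). Without CPT-11 replicate 3, 33 pathway genes were higher and 43 lower (3897 and 3952 over all tested genes). Without CPT-11 replicate 1 the pathway counts were 6 and 18 (381 and 626 over all tested genes). Without CPT-11 replicate 2 they were 7 and 19 (452 and 700). Without silenced replicate 1 they were 8 and 19 (477 and 735), and without silenced replicate 2, 9 and 19 (540 and 879). With rescaling to equal totals 20 pathway genes were higher and 24 lower (2363 and 1637). In silenced against lovastatin-pretreated cells 4 of the 115 were higher and 18 lower, where 2.58% and 4.26% of all tested genes were. Their median was -0.05. With only the groups compared they were 10 and 24 (1037 and 1401 over all tested genes). In lovastatin and CPT-11 against CPT-11 none passed with limma, where 24 had an unadjusted p under 0.05 and voom called 1. Without CPT-11 replicate 3 that comparison gave 26 higher and 18 lower (2871 and 2584 over all tested genes). Against untreated cells the pathway counts were 22 higher and 20 lower with lovastatin and CPT-11, where 14.7% and 14.3% of all tested genes were. In silenced cells they were 28 higher and 37 lower, where 18.3% and 19.5% of all tested genes were. With rescaling to equal totals the pathway counts were 26 and 17, and 36 and 27, so that the balance in silenced cells turned. It also turned over all tested genes (4329 higher and 2571 lower).

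**Figure D5:**
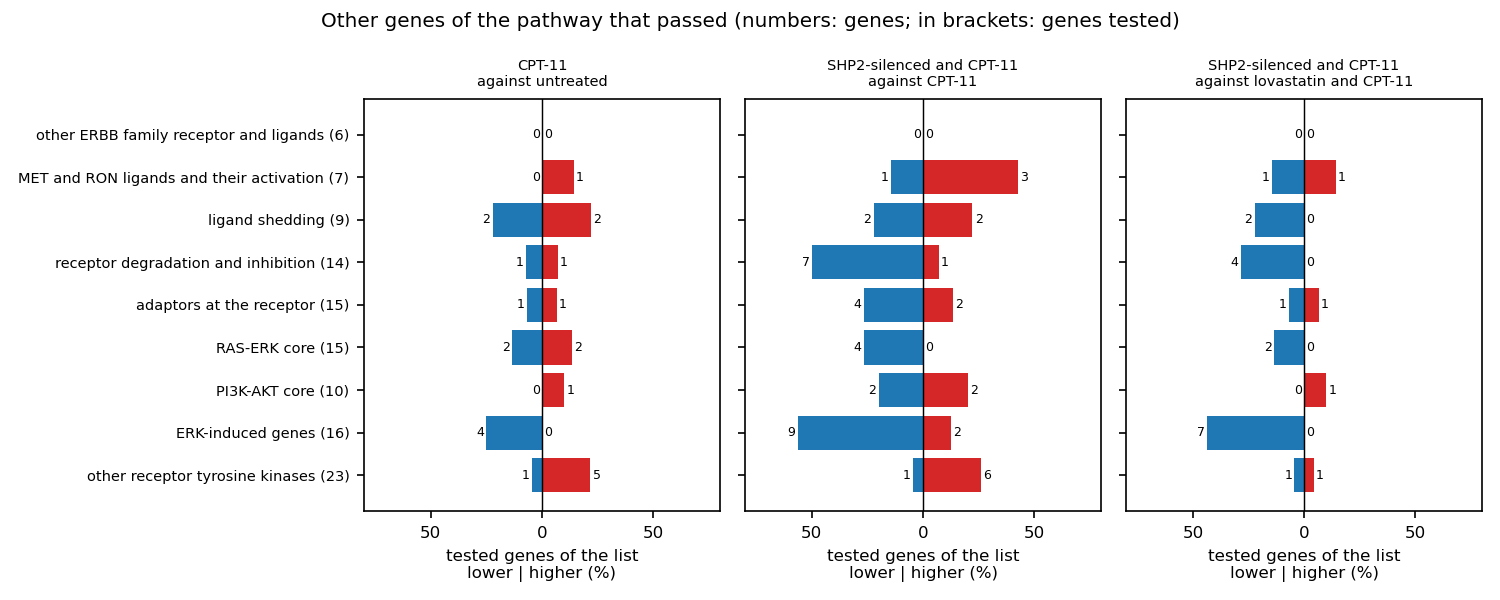
Share of the tested genes of each pathway list that were lower (blue, left) or higher (red, right) at an adjusted p of 0.05 in 3 comparisons, with the number of genes beside each bar and the number tested in brackets. The ERK-induced genes have 9 of 16 lower in silenced cells against CPT-11 and 7 of 16 against lovastatin and CPT-11.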

How the data were processed

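RNA of 12 libraries was measured. Per the submitters' processing notes, HISAT2 2.0.5, StringTie 1.3.3b, featureCounts 1.5.0-p3, DESeq2 1.16.1 and build hg19 were used, with no role given. The gene coordinates equal those of GENCODE 29 on GRCh38 for all 58735 features with an Ensembl identifier, and are printed as GRCh38. The authors deposited FPKM values with gene lengths. Each value times its length was a whole number of reads for 100% of nonzero values within 0.01, which gave 14447847 to 16224271 assigned reads per library. The authors' scaling departed from these totals by factors of 0.977 to 1.06. How the counting treated strand and reads with several matches is not given in the sources used here.

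Tests were limma 3.58.1 (R 4.3.3) on log2(FPKM + 1), a pseudocount of 1, with a variance trend and all 12 libraries in 1 model of group means. A scale of log2(FPKM + 1) understates changes of low genes. Genes were kept that reached 10 reads in 3 libraries, after scaling to a library of median depth, and 15 in total, which left 18062. P-values were Benjamini-Hochberg adjusted over these, at 0.05. Alternatives were a pseudocount of 0.1, no filter, at least 1 FPKM, only the groups compared, a replicate block, voom, rescaling to total reads, leaving out each library, and, after seeing the data, a correction for GC content and length (splines of 4 degrees of freedom), also without CPT-11 replicate 3. The script was also run on simulated reads with the same spread for all genes. That simulation held no GC slope and no outlying library, so it does not bear on their effect.

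The 9 genes and the lists were chosen with earlier results of these data known. Named are the 9 genes, at most 3 genes per pathway list and comparison with the smallest p among those that passed, the 3 protein-coding genes most like each of the 9 that passed in any comparison, and PTPN11 and HMGCS1 as checks. Some genes that this rule names are not reported here. Promoters are from RefSeq on GRCh38.p14 and matched 8 of the 9 genes by symbol. ERBB3 was not matched. No feature named AREGB, the name of a near-identical copy of AREG, is listed on chromosome 4 from EPGN to BTC. Reads from such a copy could not be told apart from those of AREG.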

Additional observations from a re-analysis of the deposited data

How the results depend on the processing

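Of 783 values of the 9 genes under alternatives, 687 kept their direction and side of the threshold, 54 lost the call, 13 gained it and 29 changed sign. Every change of sign was of a difference that had not passed. The causes were not tested, except that the unfiltered table holds more genes and the fits of 2 groups, or without a library, hold fewer libraries. With rescaling to totals, AREG (0.00114) and ERRFI1 (0.0133) in lovastatin and CPT-11 against CPT-11, and MET (0.0148) in silenced against lovastatin cells, changed sign. With the GC correction ERBB3 (-0.00535) in CPT-11 against untreated, AREG (0.0648), TGFA (-0.0204) and ERRFI1 (0.0305) in lovastatin and CPT-11 against CPT-11, MET (0.0454) in silenced against lovastatin and ERBB2 (-0.131) in silenced against untreated cells did, and without CPT-11 replicate 3 as well AREG (0.0638) and TGFA (-0.0352). Leaving out 1 library, values that changed sign ranged from -0.0654 to 0.0602 (ERBB3, CPT-11 against untreated), -0.0435 to 0.0821 (ERBB3), -0.0661 to 0.0251 (AREG), -0.0185 to 0.0331 (TGFA), -0.117 to 0.102 (HBEGF) and -0.0588 to 0.0317 (ERRFI1) in lovastatin and CPT-11 against CPT-11, -0.0521 to 0.0141 (MET, silenced against lovastatin), -0.0439 to 0.0622 (ERBB3, lovastatin and CPT-11 against untreated) and -0.0404 to 0.0766 (ERBB2, silenced against untreated).

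Counts of genes called were as follows under the alternatives that moved them by over 1.5 times, with voom and single libraries left out given in full. With no filter, silenced against CPT-11 gave 1750 genes and 3 of the 9, against 3974 and 7. With only the groups compared, CPT-11 against untreated gave 1154 (2989 before), lovastatin and CPT-11 against CPT-11 36 (84), silenced against CPT-11 451 with 2 of the 9, and silenced against lovastatin 2438 (1235). Voom on the recovered reads gave 141 for lovastatin and CPT-11 against CPT-11, 3234 for CPT-11 against untreated, 4937 for silenced against CPT-11, 1409 for silenced against lovastatin, 5582 for lovastatin and CPT-11 against untreated and 7135 for silenced against untreated. The GC correction gave 4664, 326 with 1 of the 9, and 2259 for CPT-11 against untreated, lovastatin and CPT-11 against CPT-11, and silenced against lovastatin, and without CPT-11 replicate 3 as well 4891 and 2730 with 1 of the 9 for the former pair. Leaving out 1 library gave 1931 to 4420 genes (6 to 7 of the 9) for CPT-11 against untreated, 41 to 5455 (0 to 3) for lovastatin and CPT-11 against CPT-11, 1007 to 7849 (3 to 8) for silenced against CPT-11, 598 to 731 (3 to 4) for silenced against lovastatin, 3768 to 4777 (7 to 7) for lovastatin and CPT-11 against untreated and 5134 to 6564 (6 to 7) for silenced against untreated. The highest counts in the former 3 came without CPT-11 replicate 3.

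The replicate numbers of the titles showed no sign of pairing the libraries. Of 18 same-numbered pairs 2 had deviations correlated above 0.1 (range -0.39 to 0.17), and 12 of 36 best matches fell on the same number. Each match was among 3 libraries, so that is the share without pairing. With so few libraries per group the check cannot establish that there was none. With the replicate block, lovastatin and CPT-11 against CPT-11 gave 46 genes, silenced against CPT-11 2356 (11 higher and 23 lower of the 115 pathway genes) and silenced against lovastatin 767, and the calls of EGFR in CPT-11 against untreated and HBEGF in silenced against lovastatin were not kept; the block changed no other call of the 9 genes. Depth limits HBEGF most, at 174 to 484 reads.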
